A study of Mus musculus with 6 samples.

Results

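The subunits of oligosaccharyltransferase were examined in sorted tumour-associated dendritic cells of the ID8 model, with ovarian cancer ascites named as the source. They were read as 10 named genes among the 23225 rows of the count table. The members were taken by symbol, and all 10 had a row and passed the filter on low counts. They were Stt3a, Stt3b, Rpn1, Rpn2, Ddost, Dad1, Ostc, Tusc3, Magt1 and Krtcap2.

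Oligosaccharyltransferase is the enzyme of the ER membrane that moves a preassembled glycan from its dolichol carrier onto asparagines of new proteins. Mammals build it around either of a pair of related catalytic subunits. Complexes with STT3A sit at the protein channel and glycosylate chains as they enter the ER, through the accessory subunits OSTC (DC2) and KRTCAP2 (KCP2). Complexes with STT3B act also on sites that were passed over, and carry the oxidoreductase MAGT1 or its relative TUSC3. Ribophorins (RPN1 and RPN2), DDOST (OST48) and DAD1 belong to both kinds of complex. In dendritic cells, receptors, MHC molecules and secreted cytokines are among the proteins that need these glycans.

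The data were RNA-seq counts of 3 XBP1-KO and 3 WT samples of tumour-associated dendritic cells, all of strain background C57BL/6 and all taken from ID8-based tumours at day 23, with ovarian cancer ascites named as the source. ID8 is a line of transformed mouse ovarian surface epithelium used as a model of ovarian cancer. The XBP1-KO mice carried a conditional knockout that removes XBP1 only in cells positive for CD11c, and the WT mice were wild type. XBP1 is one of the transcription factors of the unfolded protein response: IRE1 cuts its mRNA under ER stress, and the protein made from the spliced form drives genes of secretion. The sources used here do not name the driver of the deletion or the sort gate, and no source says that the 3 samples of a genotype came from separate animals. The p-values therefore measure the spread between these samples, which may be technical. The columns carry the genotype and no replicate number, so the libraries are called a, b and c within a genotype and the letter pairs nothing.

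The libraries held between 26946349 and 32709100 counts. Levels are in CPM, the counts of a gene relative to the TMM-scaled library total. The words rose and fell are used of a gene only at a Benjamini-Hochberg adjusted p under 0.05 in edgeR's quasi-likelihood test, over all 15958 genes tested. Libraries XBP1-KO b and WT b scored 23.3 and 28.6 on the second principal component (27.5% of the variance), apart from the scores of -19.8 to -7.9 of the remaining 4. The 16 dendritic cell markers were detected in every library, and 12 of them lay lower in XBP1-KO and none passed, with a median log2 fold change of -0.19. Their summed level was 75146.6 to 107318.7 CPM in XBP1-KO and 80648.0 to 130663.9 CPM in WT, led by Cd74, the MHC class II invariant chain. Markers of other cell types were detected as well. The summed level of 18 T and NK cell genes was 1203.9 to 1749.3 CPM in XBP1-KO and 833.3 to 1247.8 CPM in WT. Of these 18 genes 17 lay higher in XBP1-KO and 4 rose, with a median log2 fold change of 1.18, and none was at 0. In 8 of them every XBP1-KO library lay above every WT library, and in 1 below. For comparison, 43.9% of all tested genes lay lower, 0.157% rose and 0.288% fell. Without overlap, 8.8% of all tested genes lay above and 10.4% below. All 9 neutrophil genes lay higher and none passed, with a median log2 fold change of 1.34. In 3 of them every XBP1-KO library lay above every WT library. The sums were 355.8 to 584.6 CPM in XBP1-KO and 127.1 to 332.6 CPM in WT. Of 9 B and plasma cell genes 6 lay higher and none passed, with a median log2 fold change of 0.78. Here too 3 lay above without overlap. The sums were 358.4 to 525.2 CPM in XBP1-KO and 163.7 to 363.8 CPM in WT, and 1 gene was at 0 in a library. Of 12 macrophage genes 7 lay higher and 5 lower. Of these Mrc1, the mannose receptor, fell, with 330.3 ± 58.9 CPM in XBP1-KO and 560.2 ± 30.8 CPM in WT (SD, n = 3 each) and an edgeR adjusted p of 0.0455. It was named after its value was seen. The part of these cells in the results that follow was not tested.

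Xbp1 itself had 889, 916 and 1331 counts in the XBP1-KO libraries, against 1903, 1376 and 2300 in the WT libraries, with no overlap between the genotypes. It missed the threshold in edgeR's quasi-likelihood test (adjusted p = 0.0545). It passed in 5 of the 11 alternatives of other kinds than leaving out 1 library, among them DESeq2 (0.0015), and it passed without WT b (0.0466). A count per gene also includes transcripts that lack the deleted exon or exons, so it is no direct check of the deletion. In sorted bulk samples, fewer cells of a type and less RNA per cell cannot be told apart.

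Of the 10 subunits, Stt3a and Magt1 fell in XBP1-KO and none rose. Stt3a, the catalytic subunit of the complex at the channel, was at 0.51 times its WT level, while Stt3b, the other catalytic subunit, was at 1.05 times its WT level and did not pass. Magt1, an oxidoreductase of the STT3B complex, was at 0.65 times its WT level. The genes that fell in this fit thus came from both kinds of complex, 1 from each. For the STT3B complex this rests on Magt1 alone, which was called in 1 of 6 fits with 1 library left out. The count of 2 became 1 without WT b, and 1 without libraries XBP1-KO b and WT b. It became 0 without XBP1-KO a, XBP1-KO c or WT c. Without WT a it stayed at 2, but with Rpn1 in place of Magt1. Of the 10 log2 fold changes 9 lay below 0 and 1 above, with a median of -0.34, beside a median of 0.057 over all tested genes, of which 43.9% lay below 0. Of all tested genes 0.445% passed in either direction, with 0.288% that fell and 0.157% that rose. In 4 subunits, Stt3a, Magt1, Rpn2 and Ostc, every XBP1-KO library lay below every WT library, a pattern that 10.4% of all tested genes had. None had the opposite pattern, which 8.8% of all tested genes had, and 19.2% had one or the other.

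**Figure D1:**
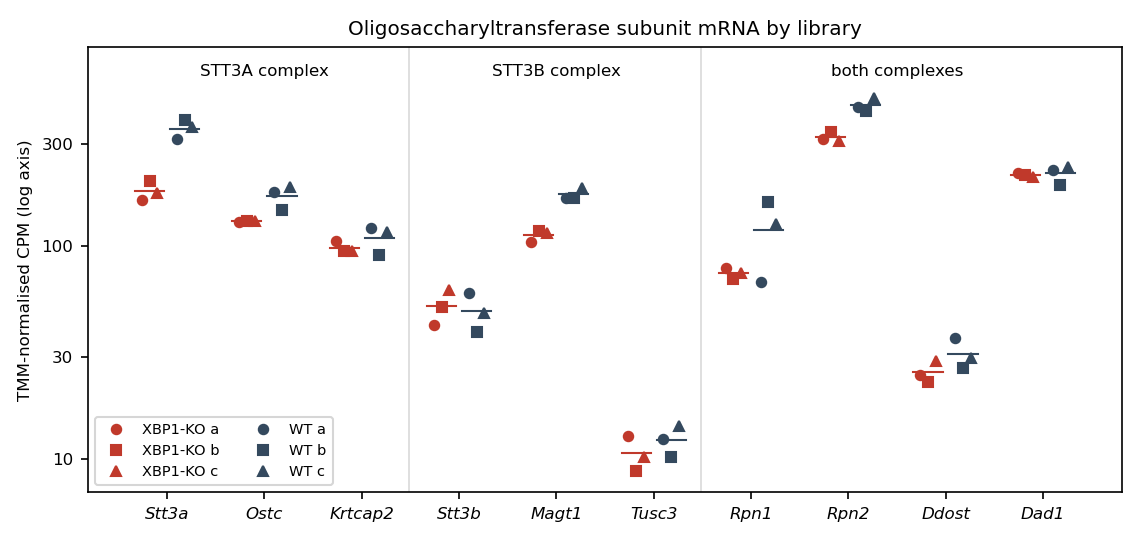
TMM-normalised CPM (log axis) of each oligosaccharyltransferase subunit in the 3 XBP1-KO libraries (red) and the 3 WT libraries (blue), with bars at the means and subunits grouped by complex. Stt3a, Ostc, Magt1 and Rpn2 show no overlap between the genotypes, while Stt3b, Tusc3, Krtcap2, Rpn1, Ddost and Dad1 overlap.

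The 250 bases before the RefSeq start of Stt3a, Stt3b and Magt1 are shown because these genes carry the contrast, and because XBP1 is known to bind elements of gene promoters in the ER stress response. They lie on the minus strand of build GRCm38.p6, at chr9:36767623-36767872 for Stt3a, chr9:115310469-115310718 for Stt3b and chrX:106011803-106012052 for Magt1. Capitals mark CCACG on either strand, and likewise the core ACGTG and the box known as CCAAT.
Stt3a: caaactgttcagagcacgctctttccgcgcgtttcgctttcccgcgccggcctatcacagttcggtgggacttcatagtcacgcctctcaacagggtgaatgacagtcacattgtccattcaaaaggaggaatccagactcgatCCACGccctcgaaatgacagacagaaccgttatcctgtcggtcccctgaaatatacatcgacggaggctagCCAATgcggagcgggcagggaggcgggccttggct
Stt3b: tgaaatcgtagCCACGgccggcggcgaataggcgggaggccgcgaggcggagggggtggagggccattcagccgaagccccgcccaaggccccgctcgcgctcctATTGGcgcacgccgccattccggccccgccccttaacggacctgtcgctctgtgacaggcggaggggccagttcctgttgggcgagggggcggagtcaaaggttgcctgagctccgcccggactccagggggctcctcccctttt
Magt1: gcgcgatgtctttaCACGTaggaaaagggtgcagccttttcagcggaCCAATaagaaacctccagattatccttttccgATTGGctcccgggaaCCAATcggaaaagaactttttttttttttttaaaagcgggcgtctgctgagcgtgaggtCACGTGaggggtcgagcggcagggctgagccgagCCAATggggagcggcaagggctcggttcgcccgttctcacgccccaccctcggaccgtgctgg

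Of the 10 subunits 8 had a promoter in the RefSeq table, all but Ostc and Tusc3. Each gene has 1 window, before its start farthest upstream, and any other starts were not searched. No window of these 8 held the ER stress response element, that is CCAAT followed after 9 bases of any kind by CCACG. None held its second form, ATTGG followed after 1 base by CCACG, or the unfolded protein response element TGACGTGG. All motifs were searched on both strands. Of all 27025 windows of the same length, 0.122%, 0.0333% and 0.496% held them in that order. CCACG, which is the second part of the first 2 elements, lay in the windows of Stt3a, Stt3b, Rpn1 and Krtcap2, and in 28.2% of all windows. In Stt3a it began 106 bases before the start and in Stt3b 239 bases before it. ACGTG read on the other strand overlaps CCACG where the letters run CCACGT, as in Krtcap2. ACGTG lay in the windows of Magt1, Dad1 and Krtcap2 and in 16.5% of all windows. In Magt1 it occurred at 3 positions, 2 of them the overlapping strands of one palindrome. CCAAT, the first part of the ER stress response element, lay in 7 of the 8 windows and in 34.5% of all. Stt3a and Stt3b both held CCACG and CCAAT, at different positions. CCAAT began 35 bases before the start on the gene strand in Stt3a, and 145 bases before it on the other strand in Stt3b. Any part of these matches in the fold changes was not tested. These matches are letters in a window and not sites.

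Among the subunits particular to the STT3A complex, Stt3a had 163.0, 201.1 and 176.6 CPM in the XBP1-KO libraries, against 314.6, 386.4 and 358.7 CPM in the WT libraries. The highest XBP1-KO library, b, lay well below the lowest WT library, a. The log2 fold change was -0.97 (SE 0.13), and the adjusted p from edgeR was 0.0124. Stt3a kept a log2 fold change between -1.07 and -0.91 whichever library was left out, but the call ended without XBP1-KO a (0.0622), XBP1-KO c (0.0619) or WT c (0.101). Within libraries XBP1-KO b and WT b, and among the other 4, the direction was the same, and without the pair the adjusted p was 0.0207.

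Ostc, the subunit that links STT3A to the channel, had 129.3, 130.3 and 130.2 CPM in XBP1-KO and 178.6, 146.8 and 187.5 CPM in WT. Its 3 XBP1-KO values were nearly equal, with a coefficient of variation of 0.422%, against 12.5% in WT. The log2 fold change was -0.40 (SE 0.13) and the adjusted p of 0.198 did not pass, although the libraries did not overlap. Krtcap2, the other STT3A-specific subunit, had 104.6, 94.8 and 94.1 CPM in XBP1-KO and 120.3, 90.5 and 115.3 CPM in WT. WT b lay below all XBP1-KO libraries here, the log2 fold change was -0.15 (SE 0.14) and the adjusted p was 0.675. Its exons overlap those of Trim46 on the other strand, and the strand setting of the counting is not given, but Trim46 averaged under 1 CPM in both genotypes.

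Among the subunits particular to the STT3B complex, Stt3b had 42.3, 51.4 and 62.3 CPM in XBP1-KO and 60.2, 39.3 and 48.6 CPM in WT. The ranges covered each other almost fully, with the highest value in XBP1-KO c and the lowest in WT b. At 0.08 (SE 0.18, 95% interval -0.32 to 0.48), its log2 fold change had an adjusted p of 0.892. That interval does not reach the fold change of Stt3a, but it still holds changes of moderate size in either direction.

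Magt1 had 104.3, 117.6 and 114.9 CPM in XBP1-KO and 167.9, 167.5 and 185.7 CPM in WT. Its coefficient of variation was 6.27% in XBP1-KO and 5.99% in WT, where it was the smallest of the 10 subunits. Its log2 fold change of -0.63 (SE 0.12) passed closely, at an adjusted p of 0.0459. Leave-one-out fits kept the call of Magt1 without XBP1-KO b (0.0429) and in no other case. Without XBP1-KO a (0.187), without XBP1-KO c (0.151), and without WT a (0.0741), b (0.0665) or c (0.263) it missed the threshold, while its log2 fold change stayed between -0.68 and -0.58. Tusc3, which can take the place of MAGT1, was the lowest of the 10 subunits, with 12.9, 8.8 and 10.3 CPM in XBP1-KO and 12.5, 10.2 and 14.3 CPM in WT. The genotypes overlapped, and the log2 fold change of -0.21 (SE 0.22) had an adjusted p of 0.717. No rise of Tusc3 beside the fall of Magt1 was detectable, with a 95% interval of -0.68 to 0.26.

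**Figure D2:**
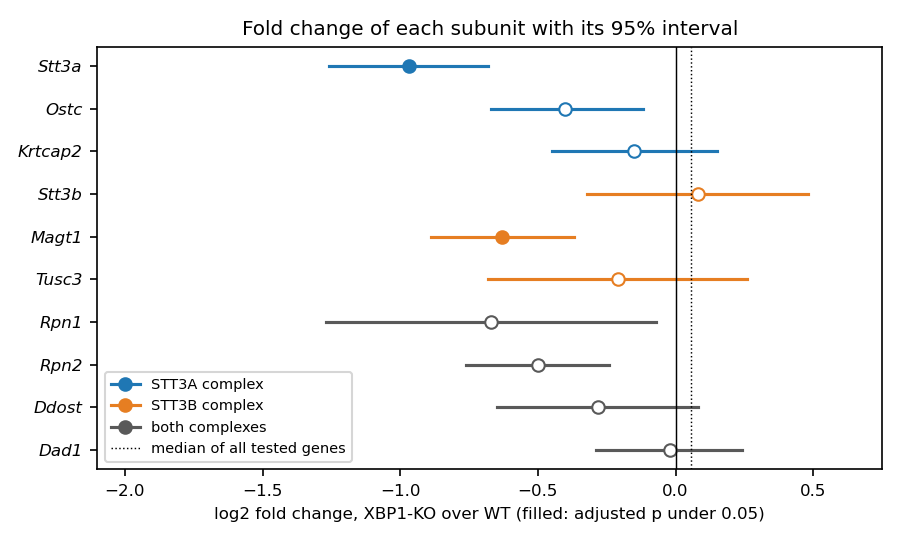
Log2 fold change of each subunit, XBP1-KO over WT, with its 95% interval from edgeR's quasi-likelihood fit. Stt3a at -0.97 and Magt1 at -0.63 passed the test (filled), and the intervals of Stt3b, Tusc3, Krtcap2, Ddost and Dad1 cross 0.

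Of the 4 subunits of both complexes none passed. Rpn2, ribophorin II, had 315.9, 340.4 and 309.1 CPM in XBP1-KO and 443.8, 428.8 and 489.9 CPM in WT. All XBP1-KO libraries lay lower, and the log2 fold change of -0.50 (SE 0.12) missed the threshold with an adjusted p of 0.0896. Rpn2 passed in 2 of the 11 alternatives of other kinds than leaving out 1 library. These were DESeq2 (0.0209) and libraries XBP1-KO b and WT b as a batch term (0.0302), a term chosen after seeing the data. With 1 library left out it passed in 0 of 6 fits, with adjusted p-values of 0.0798 to 0.379. The exons of Rpn2 overlap those of Mroh8 on the other strand, and Mroh8 has no row of that symbol in the count table.

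Rpn1, ribophorin I, had 78.9, 69.5 and 74.4 CPM in XBP1-KO and 67.8, 159.5 and 126.2 CPM in WT. WT a lay below all XBP1-KO libraries, and WT b and WT c lay above them all. The coefficient of variation in WT was 39.4%, the largest of any subunit, against 6.36% in XBP1-KO. The log2 fold change of -0.67 (SE 0.26) had an adjusted p of 0.332, and without WT a it was -0.95 with an adjusted p of 0.0305. Without WT b it was -0.42 and did not pass.

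Ddost, the OST48 subunit, had 24.7, 23.0 and 28.8 CPM in XBP1-KO and 36.9, 26.7 and 29.7 CPM in WT. Only XBP1-KO c reached into the WT range, and the log2 fold change of -0.28 (SE 0.17) had an adjusted p of 0.517. Dad1, a small membrane subunit first known as a defender against cell death, had 218.9, 214.0 and 209.2 CPM in XBP1-KO and 226.8, 192.1 and 234.3 CPM in WT. At -0.02 (SE 0.12, 95% interval -0.29 to 0.24), its log2 fold change had an adjusted p of 0.949 and a sign that turns with upper quartile scaling or library size alone. Both of the small subunits OST4 and TMEM258, which are not among the 10 members, lay close to their WT levels too. Ost4 averaged 163.3 ± 9.98 CPM in XBP1-KO and 165.3 ± 29.9 CPM in WT (SD, n = 3 each). Tmem258, listed under its older name 1810006K21Rik, averaged 92.4 ± 8.37 CPM in XBP1-KO and 94.2 ± 10.5 CPM in WT (SD, n = 3 each). Their adjusted p-values in edgeR's quasi-likelihood test were 0.971 and 0.946.

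The ratio of Stt3a to Stt3b within a library does not depend on scaling between libraries. It was 3.85, 3.91 and 2.83 in the XBP1-KO libraries and 5.22, 9.84 and 7.39 in the WT libraries, as a ratio of counts. All XBP1-KO ratios lay below all WT ratios, and WT b had the highest. On the log2 scale the mean was 1.81 ± 0.26 in XBP1-KO and 2.86 ± 0.46 in WT (SD, n = 3 each), a difference of -1.05. The exact two-sided permutation test over libraries gave p = 0.1, the smallest that 3 against 3 allows. This pair was set for comparison with earlier results of these data known. The difference ran from -1.29 to -0.83 when each library was left out in turn, and was -0.91 without libraries XBP1-KO b and WT b.

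**Figure D3:**
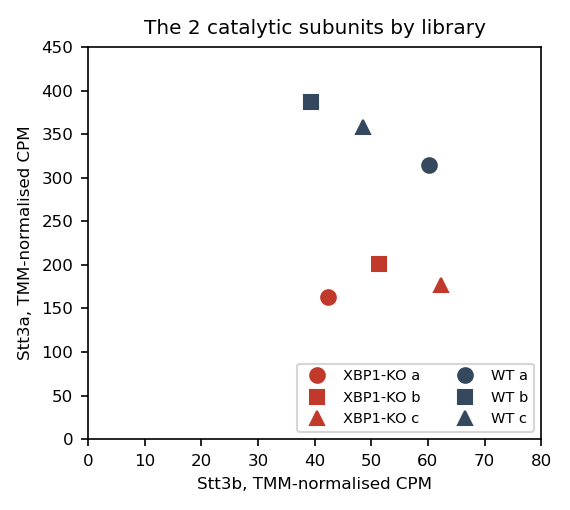
Stt3a against Stt3b in each library, in TMM-normalised CPM, with XBP1-KO in red and WT in blue. Stt3a separates the genotypes, at 163.0 to 201.1 CPM in XBP1-KO and 314.6 to 386.4 CPM in WT, while Stt3b spans 42.3 to 62.3 CPM in XBP1-KO and 39.3 to 60.2 CPM in WT.

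Stt3a lay lower also against Rpn2, Ostc, Krtcap2 and Magt1. Its ratio to Rpn2 was 0.516, 0.591 and 0.571 in XBP1-KO and 0.709, 0.901 and 0.732 in WT. Its ratio to Ostc was 1.26, 1.54 and 1.36 in XBP1-KO and 1.76, 2.63 and 1.91 in WT. Neither ratio overlapped between the genotypes, nor did that to Krtcap2 or to Magt1. The level of Stt3a alone did not overlap either, so these ratios share its difference and are not separate results. With the mean log2 level of the 4 common subunits in place of Stt3b, the log2 difference was -0.63, again without overlap.

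Within the STT3B complex, the ratio of Magt1 to Stt3b was 2.46, 2.29 and 1.84 in XBP1-KO and 2.79, 4.26 and 3.82 in WT, with no overlap. The ratio of Magt1 to Tusc3 was 8.09, 13.4 and 11.2 in XBP1-KO and 13.4, 16.4 and 13 in WT. There XBP1-KO b reached the WT range. Ostc over Dad1 varied little within a genotype, at 0.591, 0.609 and 0.622 in XBP1-KO and 0.787, 0.764 and 0.8 in WT. Krtcap2 over Dad1 overlapped, at 0.478, 0.443 and 0.45 in XBP1-KO and 0.531, 0.471 and 0.492 in WT. Stt3b over Rpn2 overlapped too, at 0.134, 0.151 and 0.202 in XBP1-KO and 0.136, 0.0916 and 0.0991 in WT, where the highest WT library lay just above the lowest XBP1-KO library. These further ratios were picked after the levels were seen and carry no test. How often ratios of other gene pairs lay apart between the genotypes was not computed.

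**Figure D4:**
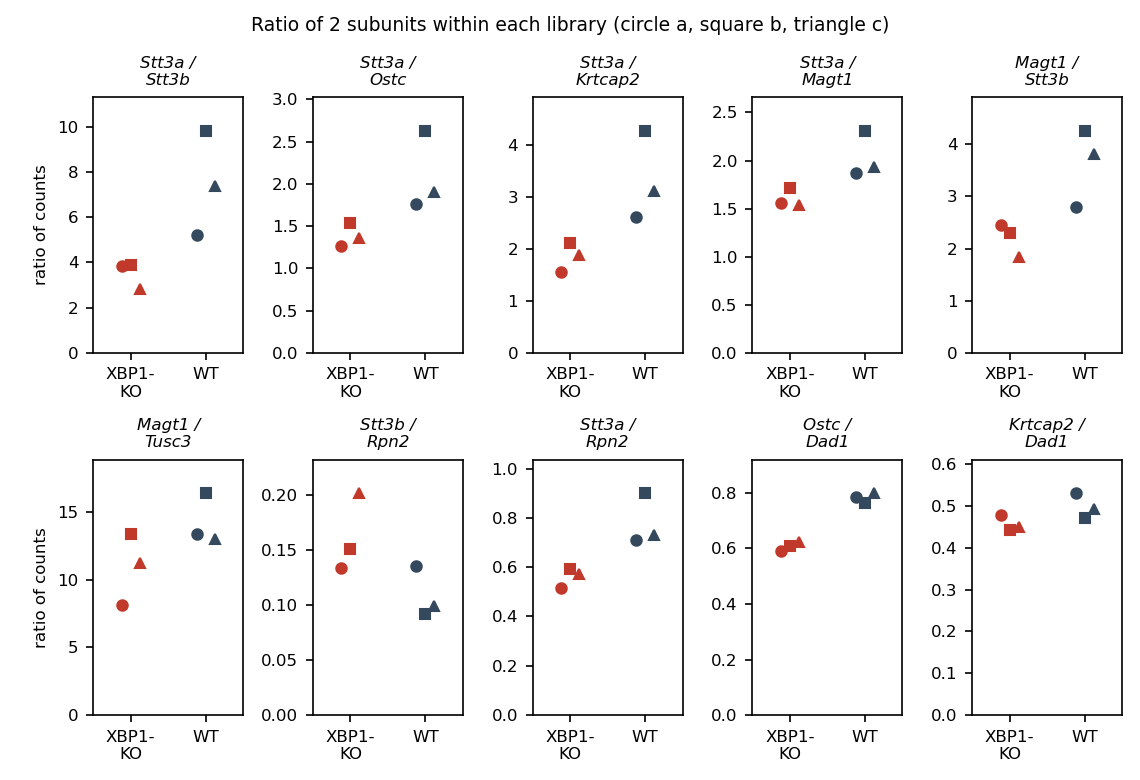
Ratio of the counts of 2 subunits within each library, for 10 pairs, with XBP1-KO (red) left of WT (blue) and each axis starting at 0. The ratio of Stt3a to Stt3b was 2.83 to 3.91 in XBP1-KO and 5.22 to 9.84 in WT, and of the 10 pairs Magt1 over Tusc3, Stt3b over Rpn2 and Krtcap2 over Dad1 overlapped.

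Levels of different subunits can be compared only per length, and the lengths used were those of the shortest principal transcript of each gene in GENCODE M21, on a later build than the counts. In CPM per kilobase, Stt3a averaged 30.7 ± 3.29 in XBP1-KO and 60.2 ± 6.17 in WT, and Stt3b 12.3 ± 2.37 in XBP1-KO and 11.7 ± 2.48 in WT (SD, n = 3 each). Stt3a was therefore the higher catalytic subunit in every library of both genotypes, and it was so with coding lengths as well, at 77.1 to 95.1 against 17.1 to 25.2 in XBP1-KO and 148.8 to 182.7 against 15.9 to 24.4 in WT.

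Per kilobase of transcript, the order in XBP1-KO was Dad1, Ostc, Rpn2, Krtcap2, Stt3a, Magt1, Rpn1, Stt3b, Ddost and Tusc3, running down from 243.8 to 7.05. In WT it was Dad1, Rpn2, Ostc, Krtcap2, Stt3a, Magt1, Rpn1, Ddost, Stt3b and Tusc3, running down from 248.0 to 8.16. Neighbours whose libraries overlapped were Ostc and Rpn2, Stt3a and Magt1, and Stt3b and Ddost in XBP1-KO. In WT they were Rpn2 and Ostc, Magt1 and Rpn1, Ddost and Stt3b, and Stt3b and Tusc3. Stt3a and Magt1, apart in WT at 53.6 to 65.9 and 40.7 to 45.1, thus overlapped in XBP1-KO at 27.8 to 34.3 and 25.3 to 28.6. By coding length the mean of Magt1 came above that of Stt3a in XBP1-KO and below it in WT, with overlapping libraries in both. Dad1 had principal transcripts of 878 and 3491 nt, and its place per kilobase of transcript rests on the shorter. By coding length Dad1 was again first, and the mean of Krtcap2 came above that of Rpn2 in both genotypes.

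The summed CPM of the 10 subunits was 1194.8, 1250.9 and 1209.8 in XBP1-KO and 1629.5, 1647.8 and 1790.2 in WT. Stt3a made up 14.8% ± 1.23 of that sum in XBP1-KO and 20.9% ± 2.21 in WT (SD, n = 3 each). Dad1 made up 17.6% ± 0.65 in XBP1-KO and 12.9% ± 1.14 in WT, and Rpn2, the largest share, 26.4% ± 0.832 in XBP1-KO and 26.9% ± 0.74 in WT (SD, n = 3 each). The shares are of counts and not per length.

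The other genes of N-glycosylation, and those of the translocon and signal peptidase, were read in 5 lists of 65 genes, all tested. Of these, 49 lay lower in XBP1-KO, 5 fell and none rose, and in 17 every XBP1-KO library lay below every WT library, against 4 with the opposite pattern. The list of translocon and signal peptidase held 16 of the 65 genes. It gave 14 of the 49 that lay lower, 2 of the 5 that fell and 7 of the 17 without overlap. Of all tested genes 43.9% lay lower, 0.288% fell, 0.157% rose, 10.4% lay below without overlap and 8.8% above. The median log2 fold change was -0.15. In place of these 5, 2 of the 65 genes passed without libraries XBP1-KO b and WT b, 3 without WT a, 2 without WT b, and 0 without XBP1-KO a, XBP1-KO c or WT c. Of 23 genes of dolichol and the lipid-linked glycan, 14 lay lower and none passed, with a median of -0.05. The smallest p was that of Srd5a3, a polyprenol reductase, with 13.7, 14.1 and 13.5 CPM in XBP1-KO and 12.7, 8.56 and 10.3 CPM in WT and an adjusted p of 0.449. All its XBP1-KO libraries lay higher.

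Of 9 genes of sugar nucleotide supply, 7 lay lower and 1 fell, with a median of -0.28. Gfpt1, the first enzyme of the hexosamine pathway, had 30.7, 32.7 and 38.8 CPM in XBP1-KO and 48.0, 69.5 and 66.3 CPM in WT (adjusted p = 0.0498). Of 15 genes of glycan trimming and lectin-assisted folding, 12 lay lower and 2 fell, with a median of -0.22. Mlec, the ER lectin malectin, which binds ribophorin I, had 38.0, 46.4 and 47.9 CPM in XBP1-KO and 83.7, 77 and 71.5 CPM in WT. Uggt1, listed as Ugcgl1, which returns glucose to misfolded glycoproteins, had 73.9, 66.5 and 64.3 CPM in XBP1-KO and 108.9, 117.0 and 145.0 CPM in WT. Neither overlapped between the genotypes, and their adjusted p-values in edgeR's quasi-likelihood test were 0.0306 and 0.0243.

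Of 16 genes of the translocon and signal peptidase, which lie beside the STT3A complex, 14 lay lower and 2 fell, with a median of -0.25. Sec61a1, the pore of the channel, had 191.4, 237.6 and 187.6 CPM in XBP1-KO and 345.2, 446.9 and 464.9 CPM in WT. Spcs3, a signal peptidase subunit, had 307.6, 307.7 and 268.9 CPM in XBP1-KO and 463.2, 473.8 and 545.4 CPM in WT. The log2 fold change was -1.03 (SE 0.15) for Sec61a1, the nearest in size to that of Stt3a among the calls of these lists, and -0.74 (SE 0.13) for Spcs3, with adjusted p-values of 0.0142 and 0.0289.

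**Figure D5:**
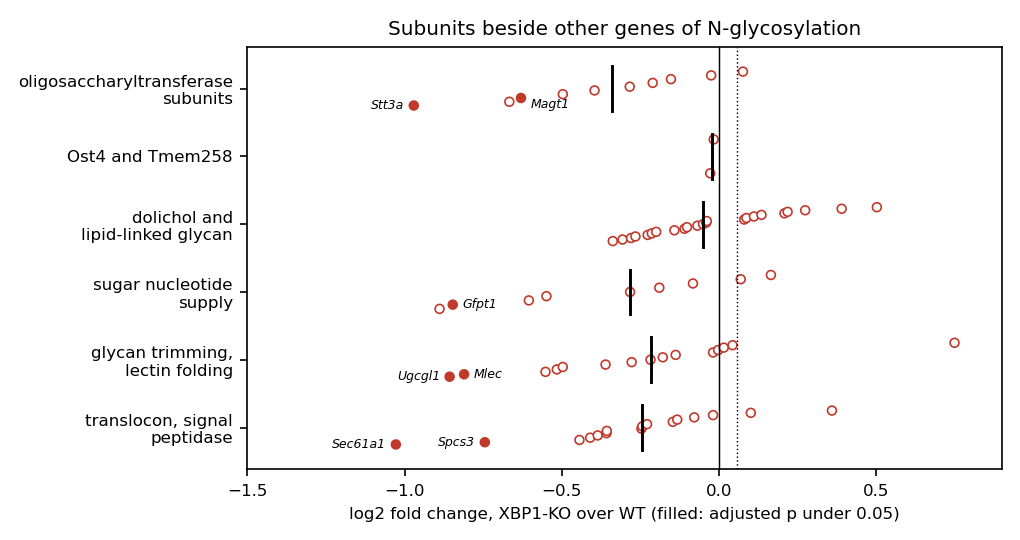
Log2 fold change, XBP1-KO over WT, of the 10 subunits (top row) and of 5 other lists of genes around N-glycosylation, with each point a gene, filled where the adjusted p was under 0.05, and a bar at each list's median. The dotted line is the median of all tested genes, 0.057, and the 7 filled points all lie below 0.

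The 5 genes whose log2 CPM followed that of Stt3a most closely over the 6 libraries, among 5824 genes with a mean of at least 20 CPM, were Eef2, Uspl1, Sdha, Znfx1 and Ik, with Pearson correlations of 0.989 to 0.999. The 6 points share the genotype difference and the scaling of each library, so this is a description. Eef2, the elongation factor of translation, had the highest value, and averaged 390.2 ± 23.0 CPM in XBP1-KO and 552.7 ± 28.8 CPM in WT (SD, n = 3 each). Its log2 fold change was -0.50 (adjusted p = 0.0896), and none of the 5 passed. The 5 genes closest to Stt3b were Ddx17, Mrpl19, Wsb2, AK169831 and Fibp, with correlations between 0.955 (Fibp) and 0.975 (Ddx17). Their log2 fold changes lay between 0.008 and 0.068, and none passed. Both lists were picked by likeness over the same 6 libraries, so their fold changes are no separate result.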

How the data were processed

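The authors deposited whole-number counts per gene symbol, not normalized, and a table of CPM values. RSEM, edgeR and the mm9 build are named, with neither version nor role, per the submitters' processing notes. The sources used here name no aligner or annotation. The deposited CPM values equalled counts over library totals to within 5.1e-11, for the 13946 genes with a CPM above 1 in at least 2 libraries.

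Counts were fitted with edgeR 4.0.16 (filterByExpr, TMM, robust glmQLFit, genotype as the only term) in R 4.3.3, and tested two-sided by glmQLFTest with Benjamini-Hochberg adjustment over 15958 genes. SEs are the absolute log2 fold change over the square root of F. The procedure was tested on simulated data, where recovery was required only at changes larger than those of the subunits. Alternatives used DESeq2 1.42.0, limma 3.58.1, other scalings and filters, the deposited CPM with a pseudocount of 1 or 0.1, and fewer libraries. The alternatives that treat libraries XBP1-KO b and WT b apart were chosen after seeing the data.

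The members and lists were chosen with earlier results of these data known. All 10 members were named; of each other list every called gene was named, or otherwise the gene with the smallest p, of each cell type list the 2 genes with the highest mean CPM, and the 5 genes most like Stt3a and Stt3b. Of the cell type lists, Ccl5 and Klrk1 led for T and NK cells, Cd74 and H2-Aa for dendritic cells, C1qb and Cd68 for macrophages, Cd79b and Ms4a1 for B cells, Retnlg and S100a8 for neutrophils, and Krt19 and Krt18 for tumour cells; none of these 12 passed. Macrophage genes summed to 6115.9 to 7203.2 CPM in XBP1-KO and 5711.1 to 7056.6 CPM in WT, and tumour cell genes to 126.5 to 197.4 CPM in XBP1-KO and 146.2 to 180.7 CPM in WT.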

Additional observations from a re-analysis of the deposited data

How the results depend on the processing

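Beside 71 genes called over the whole table, DESeq2 called 463, a fit without a filter on low counts 252, and one with libraries XBP1-KO b and WT b as a batch term 426. Library size alone called 25, estimation without robustness 45, and limma on the deposited CPM 31 with a pseudocount of 1 and 29 with 0.1. The split was 25 higher and 46 lower with TMM, 13 and 12 with library size alone, 23 and 27 with upper quartile scaling, 111 and 352 with DESeq2 and 61 and 191 without a filter. Leaving out 1 library gave 5 (without WT c) to 154 (without XBP1-KO b). Beside 2 subunits called, 3 were called with DESeq2 and with the batch term, 1 with limma-voom, upper quartile scaling, library size alone, no robust estimation, both pseudocounts and without libraries XBP1-KO b and WT b, and 0 to 2 with 1 library left out. Of the other genes of N-glycosylation and the translocon, 5 passed, against 9 with DESeq2, 8 with the batch term, 3 with library size alone and with both pseudocounts, 2 without libraries XBP1-KO b and WT b, and 0 to 5 with 1 library left out. Stt3a passed in all 11 other fits of the 6 libraries or without that pair, and Magt1 in 4 of them. The sign turned for Dad1, at 0.061 (library size alone, and both pseudocounts) and 0.03 (upper quartile scaling), and -0.134 to 0.028 with 1 library left out. It turned for Stt3b too, at -0.071 without that pair and -0.1 to 0.241 with 1 library left out. The cause of these shifts was not tested. Counting error was largest for Tusc3, the lowest member, with 261 to 352 counts in the XBP1-KO libraries and 288 to 428 in the WT libraries. No paired analysis was possible because the columns carry no replicate number.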

Other observations

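Genes that supply activated sugars lay lower beside Gfpt1, and were picked out after their values were seen. Gmppb, the catalytic subunit that makes GDP-mannose, had 12.4, 18.6 and 16.2 CPM in XBP1-KO and 24.2, 32.8 and 30.4 CPM in WT, with a log2 fold change of -0.89 (SE 0.19) and an edgeR adjusted p of 0.0678. Gmppa, its regulatory partner, averaged 29.8 ± 4.24 CPM in XBP1-KO and 43.6 ± 6.02 CPM in WT (SD, n = 3 each), with an adjusted p of 0.156. Pgm3, a mutase of the hexosamine pathway, averaged 20.2 ± 1.21 CPM in XBP1-KO and 30.8 ± 4.39 CPM in WT (SD, n = 3 each), with an adjusted p of 0.12. In none of these did the libraries of the genotypes overlap, and none passed. Every XBP1-KO library lay below every WT library in 4 of the 9 genes of that list, and in 10.4% of all tested genes. In the same list 2 of the 9 genes lay higher. At the other end of the lists, Engase, a cytosolic enzyme that cleaves free glycans, had 5.49, 4.28 and 4.46 CPM in XBP1-KO and 3.18, 2.41 and 2.87 CPM in WT, with a log2 fold change of 0.75 (SE 0.28) and an adjusted p of 0.278. Every XBP1-KO library of Engase lay above every WT library, a pattern that 8.8% of all tested genes had.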
